A study of Homo sapiens with 6 samples.

Results

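Primary granules, also called azurophil granules, are the first storage granules that a maturing neutrophil makes, and they are filled at the promyelocyte stage. They hold serine proteases, heme peroxidases and cationic antimicrobial proteins, which kill engulfed microbes and, when released, damage tissue. Their genes are transcribed for a short window of differentiation under factors such as C/EBP proteins, PU.1, MYB and RUNX1, and their transcripts are lost in later stages, so they are widely used as markers of the promyelocyte. The genes described here are 10 of the 17911 in the expression table, chosen by symbol: the peroxidase genes MPO, LPO and EPX, the serine protease family genes PRTN3, ELANE, AZU1, CTSG and PRSS57, and the cationic protein genes PRG2 and RNASE2. All 10 symbols had a single row. All 10 are called primary granule genes below, although LPO encodes a secreted peroxidase and EPX, PRG2 and RNASE2 encode proteins of eosinophils. The 10 genes were chosen with earlier results of these data known, so their shares beside those of all genes are descriptive.

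The study compared HL-60 cells, a human leukaemia line established from promyelocytic cells, with and without the antiarrhythmic drug amiodarone. The control group had 3 libraries and the treated group, which received 10 uM amiodarone over 24 h, also had 3. The labels do not say whether control cells were given a vehicle, or whether each library of a group had its own culture. The p-values therefore speak only of differences among these libraries, whose spread may be technical. HL-60 is a single cancer line and not normal marrow.

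The table's values are RPKM-like, meaning reads scaled by gene length and by depth, so levels can be compared between genes. Steps among the low values of short genes put the depth at 16200000 to 17900000 reads per library, which is an estimate. At that depth a gene's value can be turned into an approximate number of reads, and the estimate is given below where a gene was low. Of the promyelocyte and early myeloid markers CD33, ANPEP, MS4A3, KIT, FUT4, CD38 and CLEC11A, 5 of 7 passed the filter on low values, while KIT and CD38 were under 1 in every library. Of the mature neutrophil markers FCGR3B, MME and CXCR1 were under 1 throughout, while CSF3R, the G-CSF receptor gene, stood at 74.4 ± 0.616 in controls and 57.6 ± 0.874 after amiodarone. The T cell markers CD3E and CD2 were under 1 and CD3D was 1.29 to 2.15 over the 6 libraries. The B cell marker CD79A was 11.003 ± 0.427 and 9.26 ± 0.384, and COL1A1 of fibroblasts and EPCAM and KRT5 of epithelium were under 1.

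The granule genes are not spread evenly over the genome. PRSS57 (685546 to 695498, minus strand), AZU1 (825097 to 832018, plus), PRTN3 (840960 to 848175, plus) and ELANE (851014 to 856247, plus) lie on chromosome 19 in GENCODE 29 (GRCh38), with 8941 bases between AZU1 and PRTN3 and 2838 bases between PRTN3 and ELANE. EPX (58192737 to 58205174, plus), LPO (58218548 to 58268518, plus) and MPO (58269856 to 58280935, minus) lie on chromosome 17, where the ends of LPO and MPO face each other across 1337 bases. RNASE2 (20955452 to 20956436, plus) and CTSG (24573522 to 24576260, minus) are on chromosome 14 and PRG2 (57386794 to 57390657, minus) is on chromosome 11. Of the exonic bases of PRG2, 43.0% are shared with the annotated gene AP000781.2 on the same strand, so its reads are uncertain to that extent. LPO shares 1.71% of its exonic bases with MKS1 on the opposite strand, and the other 8 genes share none with any annotated gene.

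Promoter sequence was at hand for 6 of the 10 genes, LPO, PRTN3, AZU1, CTSG, PRSS57 and RNASE2, in the RefSeq table for GRCh38.p14. Windows of 250 bases before the start were searched. They are shown for the neighbours AZU1 and PRTN3, whose transcripts fell by different amounts, and for the protease gene CTSG, which lies elsewhere and fell as AZU1 did. The start is that of the RefSeq table, which for all 6 genes lies inside the GENCODE gene given above. For AZU1 and LPO it lies downstream of the first annotated exon. The windows of PRSS57 and RNASE2, which are not printed, also reach into the GENCODE gene at their last bases. Each window is printed only up to the first GENCODE exon of the gene that it meets, which leaves out the last 39 bases for PRTN3, 10 for CTSG and 1 for AZU1. Capitals mark matches on either strand to any of 4 short motifs, AACNG (the core that MYB binds), GAGGAA (a PU.1 type site), TTNNGNAA (a C/EBP type site) and TGTGGT (a RUNX type site).
Window of PRTN3, chr19:840749-840959, plus strand
PRTN3: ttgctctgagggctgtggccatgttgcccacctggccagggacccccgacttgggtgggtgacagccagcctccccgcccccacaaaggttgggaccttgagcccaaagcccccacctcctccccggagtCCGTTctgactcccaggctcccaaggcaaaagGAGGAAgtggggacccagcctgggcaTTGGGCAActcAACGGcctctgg
Window of AZU1, chr19:827587-827835, plus strand
AZU1: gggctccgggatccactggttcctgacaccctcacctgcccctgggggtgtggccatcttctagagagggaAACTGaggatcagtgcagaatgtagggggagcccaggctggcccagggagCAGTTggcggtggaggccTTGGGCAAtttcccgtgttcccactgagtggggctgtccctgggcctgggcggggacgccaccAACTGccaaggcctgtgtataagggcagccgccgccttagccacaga
Window of CTSG, chr14:24576261-24576500, minus strand
CTSG: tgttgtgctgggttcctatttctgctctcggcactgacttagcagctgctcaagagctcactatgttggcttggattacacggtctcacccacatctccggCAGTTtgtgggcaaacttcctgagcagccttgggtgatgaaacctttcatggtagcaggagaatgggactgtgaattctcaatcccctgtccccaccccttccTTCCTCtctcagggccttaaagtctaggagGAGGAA

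PRTN3 and AZU1 carried the same C/EBP type letters, TTGGGCAA, beginning 62 and 111 bases before the start, respectively. PRTN3 had MYB cores 51 and 120 bases before the start and a PU.1 type match at 88, and AZU1 had MYB cores at 48, 129 and 179. In CTSG the PU.1 type letters occurred at 16 and, on the opposite strand, at 46, with a MYB core at 149, and LPO had C/EBP type matches 138 and 249 bases before its RefSeq start. Over the 6 windows the MYB core was found in 6, the C/EBP type match in 4, the PU.1 type in 2 and the RUNX type in 1, in PRSS57. Among all 35116 windows of the same length in the table the shares were 70.6%, 33.2%, 23.6% and 10.98%. Among the 13533 windows of the genes tested below they were 68.7%, 24.7%, 23.3% and 8.42%. In RNASE2 a MYB core match on each strand overlapped the other, and the LPO match at 138 reads as a match on both strands. PRSS57 had MYB cores 44 and 198 bases before the start, and the one at 44 lies inside the GENCODE gene. These matches are letters in a window and were not tested as binding sites.

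Transcripts of all 10 listed genes fell after amiodarone. Other azurophil granule genes did not all fall: BPI, LYZ and CD63 were higher after amiodarone, as described below. The ratios of group means ran from 1.79-fold lower for EPX to 5.70-fold lower for LPO, and 6 genes were at least 2-fold lower by this ratio. The test was limma on log2(value + 1) over the 11445 genes that reached a value of 1 in 3 or more libraries, with Benjamini-Hochberg adjustment, and a gene is called at an adjusted p under 0.05. All 10 genes were called lower, with no overlap between groups, against a background of 44.8% of tested genes called lower and 45.3% lower without overlap (78.3% called and 79.3% without overlap in either direction). Of the 10, 9 reached the filter in the treated libraries too, and EPX did so only in the controls. On the log2 scale 5 of the 10 were lower by at least 2-fold, against 2.6% of tested genes. Their median log2 fold change was -1.08, and that of all tested genes was -0.06. In these bulk libraries fewer cells of a kind and less RNA per cell cannot be told apart.

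**Figure D1:**
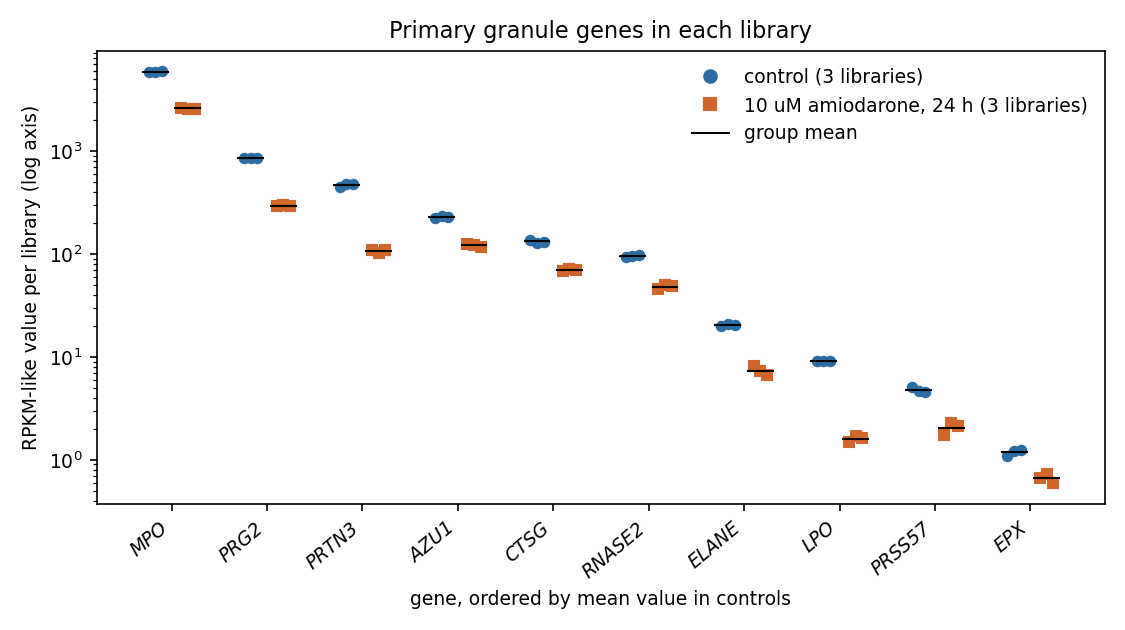
Each point is the RPKM-like value of 1 library on a log axis for the 10 primary granule genes, ordered by their mean in controls, with circles for the 3 control and squares for the 3 amiodarone libraries and a line at each group mean. In every gene the 3 squares lie below the 3 circles, from MPO at the top (5962 and 2613) to EPX (1.18 and 0.66).

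Among the peroxidases, MPO makes myeloperoxidase, the enzyme that turns hydrogen peroxide and chloride into hypochlorous acid. Its values were 5914, 5975 and 5998 in the controls and 2646, 2596 and 2598 after amiodarone. All 3 treated libraries lay far under the controls, with a coefficient of variation within a group of 0.733% in controls and 1.09% after amiodarone. The mean dropped from 5962 ± 43.7 to 2613 ± 28.4 (SD, n = 3 per group), a 2.28-fold lower level and a log2 fold change of -1.19 (SE 0.019, limma, adjusted p = 2.97e-12). MPO held rank 3 among all genes of the table by mean value in controls and rank 31 after amiodarone.

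LPO encodes lactoperoxidase, a secreted peroxidase of milk, saliva and airway fluid that is a close relative of myeloperoxidase. It read 9.09, 9.18 and 9.19 in controls and 1.49, 1.71 and 1.62 after amiodarone. The control values were within 0.1 of each other and more than 5 times the treated ones. The fold was 5.70, from 9.15 ± 0.0551 to 1.61 ± 0.111, with a log2 fold change of -1.96 (SE 0.056, limma, adjusted p = 1.99e-10). That value understates the ratio because of the added 1: the log2 of the ratio of means was -2.51. An approximate 1048 reads in a control library and 168 in a treated one stand behind LPO.

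EPX, the peroxidase of eosinophil granules, was close to the filter. Its values were 1.09, 1.21 and 1.24 in controls and 0.67, 0.72 and 0.59 after amiodarone, an estimated 57 and 29 reads per library. It passed the filter only through the controls, where it is higher, so the filter favoured its call. The means were 1.18 ± 0.0794 and 0.66 ± 0.0656, and the log2 fold change was -0.39 (SE 0.074, limma, adjusted p = 5.31e-04).

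The 5 genes of the serine protease family differed widely in level and in the size of the fall. PRTN3 makes proteinase 3, a neutrophil elastase relative and the main target of autoantibodies in granulomatosis with polyangiitis. It had 450, 485 and 483 in controls against 109, 104 and 109 after amiodarone. The coefficients of variation were 4.15% and 2.80%, while the means, 472 ± 19.6 and 107 ± 3.01, stood 4.41-fold apart. With a log2 fold change of -2.13 (SE 0.033, limma, adjusted p = 2.8e-12), PRTN3 had the most negative value of the 11445 tested genes, and LPO held rank 3. This order depends on the added 1: with a pseudocount of 0.1, LPO (-2.44) was lower than PRTN3 (-2.14), as it was by the ratio of means. It is a description of these libraries.

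ELANE, the neighbour of PRTN3, encodes neutrophil elastase, mutated in severe congenital and cyclic neutropenia. Its transcripts were far less abundant in HL-60 than those of PRTN3, at 20.2, 21.1 and 20.3 in controls and 8.21, 7.26 and 6.61 after amiodarone. The treated libraries varied more than the controls (coefficient of variation 10.9% against 2.41%), where counting alone would give about 9.02% at the estimated depth. The mean fell 2.79-fold, from 20.5 ± 0.495 to 7.36 ± 0.805 (log2 fold change -1.37, SE 0.063, limma, adjusted p = 7.26e-09).

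AZU1 makes azurocidin, also known as CAP37 or heparin-binding protein, which has the protease fold but no protease activity and attracts monocytes. It was measured at 226, 237 and 231 in controls and 126, 123 and 118 after amiodarone. No treated library came near the controls, and the mean fell 1.89-fold, from 231 ± 5.6 to 122 ± 4.46 (log2 fold change -0.91, SE 0.031, limma, adjusted p = 7.13e-10). CTSG makes cathepsin G, a protease with chymotrypsin-like cleavage. Values of 137, 129 and 133 in controls stood against 69.3, 71.1 and 69.8 in treated cells. The fall of CTSG was 1.90-fold (133 ± 4.15 to 70.1 ± 0.942, log2 fold change -0.91, SE 0.029, limma, adjusted p = 4.21e-10), close to that of AZU1 although the genes are on different chromosomes.

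PRSS57 encodes neutrophil serine protease 4, which cleaves after arginine. It was low in HL-60, with 5.12, 4.7 and 4.58 in controls and 1.73, 2.3 and 2.13 after amiodarone. These correspond to an estimated 93 and 36 reads per library, and the coefficient of variation reached 14.3% in the treated group, the highest of the 10 genes. Its mean fell 2.34-fold, from 4.8 ± 0.284 to 2.05 ± 0.293 (log2 fold change -0.93, SE 0.078, limma, adjusted p = 9.27e-07).

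PRTN3 was the more abundant of the AZU1 and PRTN3 pair in every control library and the less abundant in every treated one. The value of PRTN3 divided by that of AZU1 in the same library was 1.99, 2.04 and 2.09 in controls and 0.86, 0.843 and 0.928 after amiodarone. PRTN3 divided by ELANE went from 23.0 ± 0.779 to 14.7 ± 1.67, and AZU1 divided by ELANE from 11.3 ± 0.0905 to 16.7 ± 1.21. MPO divided by LPO went from 651 ± 1.13 to 1633 ± 131, and MPO divided by EPX from 5067 ± 315 to 3986 ± 400. None of these 5 ratios overlapped between the groups, beside 79.3% of single tested genes without overlap in either direction. The share among ratios of other genes was not measured, so this count is descriptive. An exact two-sided permutation test of the means gave p = 0.1 for each of the 5 ratios, and 0.1 after Benjamini-Hochberg adjustment over them. This is the smallest p that 3 against 3 libraries can give.

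The cationic protein genes belong to granules that neutrophils and eosinophils share only in part. PRG2 encodes the proform of eosinophil major basic protein, the crystal core of the eosinophil granule. It was the second most abundant of the 10, at 857.7, 857.8 and 868.3 in controls and 297, 302 and 293 after amiodarone. The groups were far apart against standard deviations of 6.07 and 4.47, and PRG2 fell 2.90-fold (861 to 297, log2 fold change -1.53, SE 0.021, limma, adjusted p = 1.07e-12). RNASE2 makes the eosinophil-derived neurotoxin, a secreted ribonuclease with antiviral activity. It was 93.7, 95.7 and 97.5 in controls and 46.3, 49.9 and 49.1 in treated cells, a 1.97-fold fall (95.6 ± 1.91 to 48.4 ± 1.91, log2 fold change -0.97, SE 0.033, limma, adjusted p = 8.35e-10). The related gene RNASE3, for eosinophil cationic protein, also fell, from 6.9 ± 0.401 to 2.79 ± 0.806, and how reads that fit both genes were counted is not given in the sources used here.

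**Figure D2:**
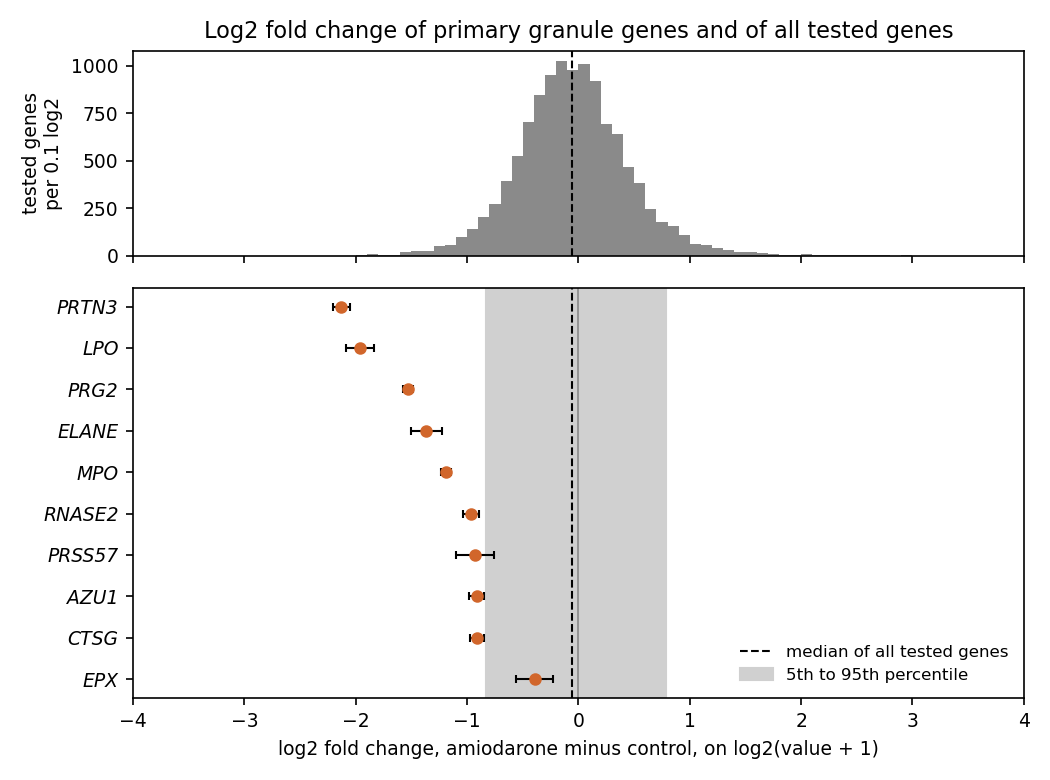
The upper panel counts all 11445 tested genes by log2 fold change (amiodarone minus control on log2(value + 1)), and the lower panel gives the 10 primary granule genes with 95% confidence intervals, over a band from the 5th to the 95th percentile of all tested genes (-0.83 to 0.78). The estimates of 9 of the 10 genes lie to the left of the band and EPX lies inside it.

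The genes kept a similar order of level in both groups. In controls the order from high to low was MPO, PRG2, PRTN3, AZU1, CTSG, RNASE2, ELANE, LPO, PRSS57 and EPX, over a 5053-fold range of the RPKM-like value. After amiodarone AZU1 (122 ± 4.46) passed PRTN3 (107 ± 3.01), and PRSS57 (2.05 ± 0.293) passed LPO (1.61 ± 0.111). Every pair of neighbours in these orders was apart by more than the larger of their standard deviations. By size of change on the log2 scale the 95% confidence intervals of AZU1, CTSG, PRSS57 and RNASE2 overlapped each other, from -1.10 to -0.76 for PRSS57 and within that for the other 3. PRTN3 (-2.20 to -2.06) and LPO (-2.09 to -1.84) overlapped narrowly. PRG2 (-1.58 to -1.49) and MPO (-1.23 to -1.15) each stood clear of PRTN3, LPO and one another. Both overlapped narrowly with ELANE (-1.51 to -1.23), which lay between them.

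Summed over the 10 genes, the value was 7714, 7816 and 7845 in controls and 3306, 3258 and 3247 after amiodarone. As a share of all values in a library this was 1.45% ± 0.013 in controls and 0.573% ± 0.00243 after amiodarone. MPO made up 76.5% ± 0.121 of the sum in controls and 79.9% ± 0.19 after treatment, and the other 9 genes together fell from 1829 ± 25.4 to 657 ± 6.61, which is 2.79-fold. The exact two-sided permutation test of each of these differences gave p = 0.1, the smallest possible here. Among genes outside the 10, those whose centred log2 values lay nearest to MPO over the 6 libraries were KHSRP (root mean square distance 0.0198), ALDOC (0.0225) and EIF4G1 (0.0247). They encode an RNA-binding protein, a glycolytic aldolase and a translation initiation factor. Over 2 groups of 3 this likeness is mainly a like difference between the groups, and the nearest of the granule genes, ELANE, lay at 0.116.

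The genes around the chromosome 19 and chromosome 17 clusters were read for comparison, taking the genes between the members and 3 table rows on each side. Of 17 such genes 15 were tested, of which 13 were called lower and 1 higher, with a median log2 fold change of -0.33, against 44.8% and 33.5% of all tested genes. The 7 granule genes of both clusters had a median of -1.19. Between PRSS57 and AZU1 on chromosome 19, the splicing repressor gene PTBP1 fell from 175 ± 0.367 to 117 ± 2.25, PLPPR3 from 40.6 ± 1.46 to 22.3 ± 1.91 and PALM from 8.28 ± 0.634 to 4.43 ± 0.642. PLPPR3 (log2 fold change -0.84) and PALM (-0.78) changed by nearly as much as AZU1. Beyond ELANE, the complement factor D gene CFD fell 1.21-fold (32.5 ± 1.17 to 26.8 ± 2.12), MED16 changed by -0.15 on the log2 scale and R3HDM4 rose 1.14-fold (74.1 ± 4.01 to 84.7 ± 2.85).

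On chromosome 17 the gene beyond MPO, TSPOAP1, which encodes a protein that binds the mitochondrial translocator protein TSPO, had 27.2, 27.0 and 27.4 in controls and 8.32, 8.55 and 8.06 after amiodarone. This 3.27-fold fall was larger than that of MPO (log2 fold changes of -1.60, SE 0.038, and -1.19, SE 0.019, with 95% intervals that do not overlap). MKS1, which lies between EPX and LPO and overlaps the 5′ end of the GENCODE gene LPO, was 7.53 ± 0.334 and 6.57 ± 0.693, with a log2 fold change of -0.18 (limma, adjusted p = 0.0364). The call of MKS1 ended in 5 of the 14 alternatives, among them leaving out control replicate 1 (adjusted p = 0.0849), control replicate 3 (0.106) or amiodarone replicate 2 (0.146). On the other side of EPX, DYNLL2 and the splicing factor gene SRSF1 fell 2.04-fold and 2.28-fold, and VEZF1 was not called (14.5 ± 0.368 and 14.8 ± 0.789).

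**Figure D3:**
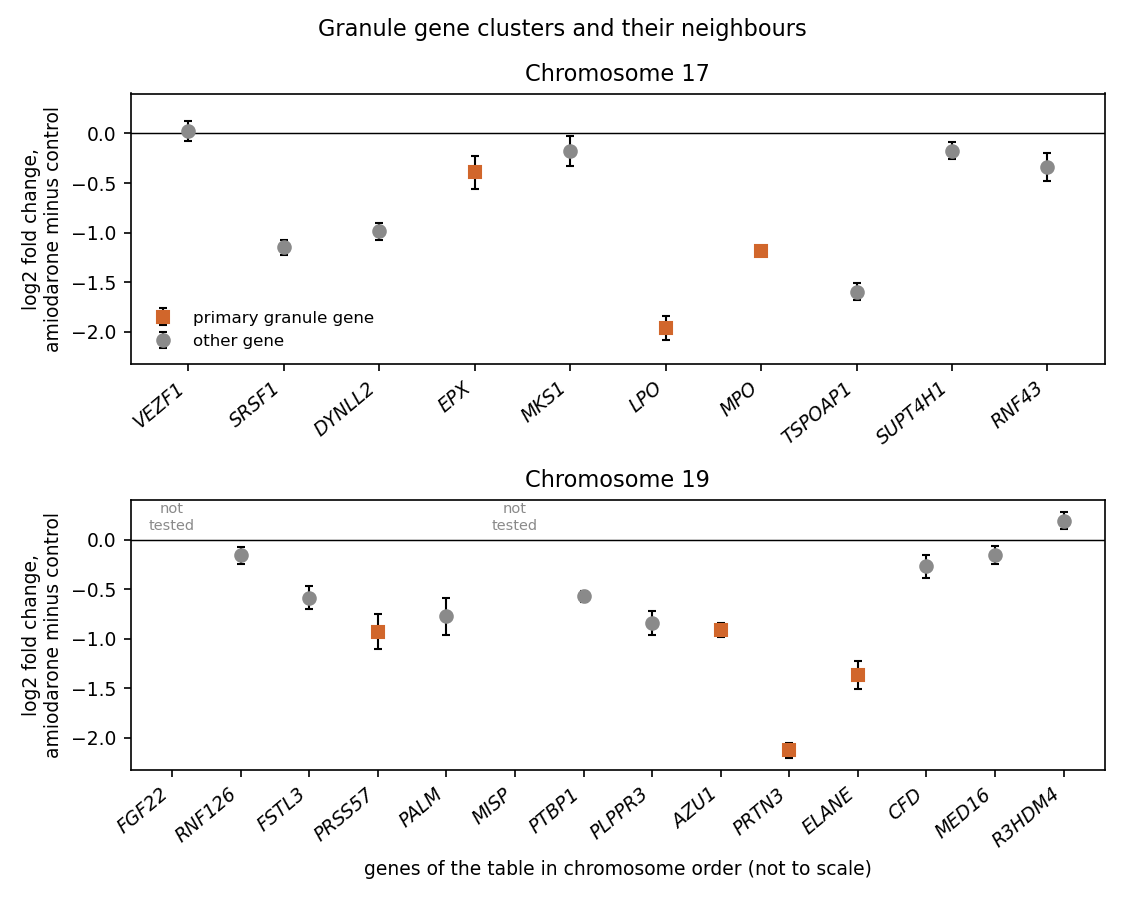
Log2 fold change with 95% confidence intervals for the genes of each cluster in chromosome order, with squares for primary granule genes and circles for their neighbours. On chromosome 19 PRTN3 and ELANE are the lowest points, and on chromosome 17 LPO is the lowest, followed by TSPOAP1 and MPO.

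Most tested members of a further list of granule contents were called higher. In this list of azurophil and eosinophil granule genes, 6 of 7 tested members were called higher and 1, RNASE3, lower, with a median log2 fold change of 0.27. The background was 33.5% called higher and 44.8% lower. PRG3, a close relative of PRG2 named outside the rule, was under the filter at 0.38, 0.77 and 1.21 in controls and 0.07, 0.14 and 0.21 after amiodarone. With no filter on low values 2 members of the list were called lower. The granule membrane tetraspanin gene CD63 rose from 190 ± 4.61 to 229 ± 4.69, the lysozyme gene LYZ from 102 ± 4.43 to 123 ± 3.66 and BPI, for a protein that kills Gram-negative bacteria, from 36.5 ± 0.0643 to 42.4 ± 1.4. These rises were 1.16-fold to 1.21-fold. DEFA1 and DEFA1B, counted among the 6, are near-identical copies under 2 in every library, and they reached 1 in all amiodarone libraries and in at most 1 control. Both passed the filter through the treated libraries, where they are higher, so the filter favoured their calls and this count.

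Genes of specific and gelatinase granules, which neutrophils make after the primary ones, were called higher in 8 of 11 tested members and lower in none, with a median of 0.50, against 33.5% of all tested genes called higher. One of the 8, CEACAM8, passed the filter only through the treated libraries, so its call was favoured by the filter. CYBB, the catalytic subunit of the phagocyte oxidase, rose 2.43-fold (22.5 ± 0.982 to 54.6 ± 0.494) and the acute phase gene ORM1 2.14-fold (29.5 ± 0.274 to 63.1 ± 2.21). PTX3, a soluble pattern receptor gene, rose from 10.8 ± 0.212 to 21.5 ± 0.647 and CHI3L1 from 249 ± 2.98 to 353 ± 3.73. Named outside the rule, MMP9 rose 1.82-fold (20.5 ± 0.883 to 37.3 ± 2.44). Among the members under the filter, LTF, LCN2, MMP8 and OLFM4 were under 0.2 in all libraries. The tested members that were not called were CAMP (2.22 ± 0.436 and 1.92 ± 0.348), TCN1 (1.19 ± 0.231 and 1.18 ± 0.2) and MMP25 (8.76 ± 0.42 and 9.11 ± 0.318). With a minimum value of 5, 5 members were called higher.

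Genes for packaging and activating the proteases moved by small factors in either direction. CTSC encodes the dipeptidyl peptidase that removes the propeptide of elastase, proteinase 3 and cathepsin G. It went from 138 ± 3.54 to 127 ± 2.21, a 1.08-fold fall (limma, adjusted p = 0.00237). LYST, mutated in Chediak-Higashi syndrome, rose from 13.7 ± 0.443 to 18.99 ± 0.708, and HAX1 fell from 123 ± 2.75 to 113 ± 3.67. Named outside the rule, SRGN, the proteoglycan that holds the cationic proteases in the granule, rose 1.05-fold, from 1927 ± 24.7 to 2031 ± 41.5. In this list 3 of 8 were lower, 3 higher and 2 not called, with a median of 0.04, near the 44.8% and 33.5% of all tested genes.

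Peroxidases need heme and are folded in the endoplasmic reticulum. Of 8 heme synthesis genes 5 were lower, 1 was higher and 2 were not called, with a median of -0.28, beside 44.8% lower and 33.5% higher among all tested genes. ALAS1, the first and rate-limiting enzyme, rose from 128 ± 1.92 to 190 ± 0.417, whereas UROD (41.5 ± 0.308 to 28.5 ± 1.34) and UROS (31.2 ± 1.57 to 21.7 ± 0.426) fell. Of 5 chaperone genes for the myeloperoxidase precursor 4 were lower and 1 was higher, beside the same 44.8% and 33.5%. Calreticulin and calnexin bind the precursor in turn, and CALR fell 1.71-fold (2141 ± 14.2 to 1251 ± 12.2) while CANX fell 1.09-fold (240 ± 1.75 to 220 ± 5.21). PDIA3 fell from 172 ± 1.81 to 133 ± 2.58 and HSPA5 rose from 158 ± 1.11 to 212 ± 3.16.

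Inhibitors of the proteases moved in either direction. SERPINB1, the cytosolic inhibitor of elastase, proteinase 3 and cathepsin G, rose 1.79-fold from 30.3 ± 0.251 to 54.1 ± 1.67. SERPINA1, which encodes alpha-1 antitrypsin, rose 1.72-fold (125 ± 1.29 to 214 ± 2.92), and CST7, for an inhibitor of CTSC, rose from 667 ± 11.9 to 793 ± 21.6. SERPINB6 fell from 32.5 ± 0.932 to 27.0 ± 1.0. In the list 3 of 5 tested members were higher and 2 lower, with a median of 0.25, where 33.5% of all tested genes were higher and 44.8% lower. With a minimum value of 5, 1 inhibitor was called lower.

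Transcription factors that control primary granule genes were called lower in 5 of 9 tested and higher in 4, with a median of -0.14. These shares lie near the 44.8% lower and 33.5% higher of all tested genes. CEBPA, which drives granulocyte commitment, was 251, 260 and 256 in controls and 95.4, 94.1 and 91.8 after amiodarone. That is 2.73-fold lower with no overlap (log2 fold change -1.44, SE 0.026, limma, adjusted p = 6.88e-12), a change within the range of the granule genes. RUNX1 fell 1.69-fold (33.2 ± 0.631 to 19.6 ± 0.32) and CEBPE, the factor of the later granules, 1.43-fold (118 ± 1.48 to 83.0 ± 4.18). CEBPB rose from 124 ± 3.35 to 180 ± 6.25. Named outside the rule because their motifs were searched above, SPI1, which encodes PU.1, rose from 337 ± 2.53 to 439 ± 21.3 and MYB from 112 ± 0.873 to 124 ± 3.64.

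**Figure D4:**
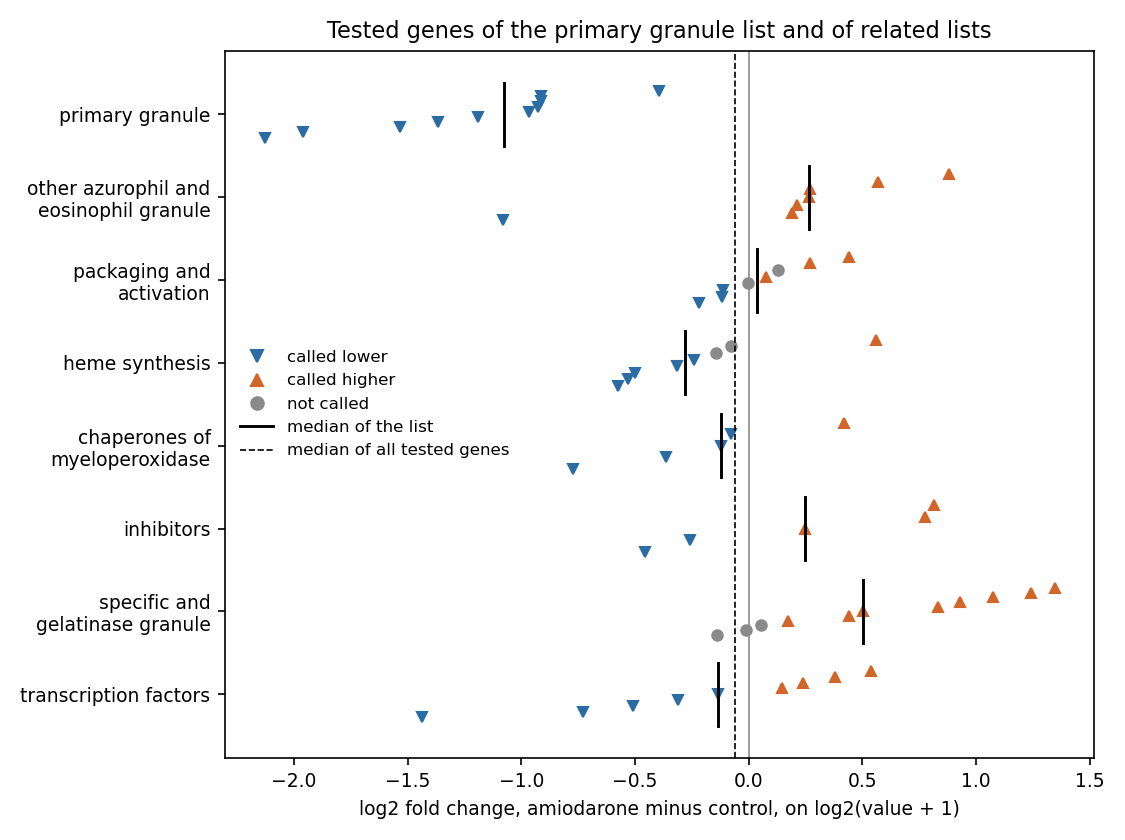
Each symbol is a tested gene, placed by its log2 fold change (amiodarone minus control) within the primary granule list and 7 related lists, with triangles down for genes called lower, up for higher and circles for not called. The list medians, drawn as vertical bars, run from -1.08 for the 10 primary granule genes to 0.50 for specific and gelatinase granule genes, and the dashed line is the median of all tested genes at -0.06.

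Markers of cell identity moved with the granule genes in part. Of the promyelocyte and early myeloid markers, 3 of 5 tested were lower and 2 were not called, where 44.8% of all tested genes were lower. The summed value of all 7 was 1177 to 1193 in controls and 737 to 760 after amiodarone. MS4A3 fell 2.03-fold (262 ± 8.49 to 129 ± 4.08) and CLEC11A 2.499-fold (99.1 ± 3.61 to 39.7 ± 3.88). ANPEP, for CD13 and the largest part of this sum, fell 1.55-fold (701 ± 10.7 to 453 ± 9.36). Of the markers under 1 and not tested, CD38 went from 0.303 ± 0.0321 to 0.803 ± 0.129 and KIT from 0.357 ± 0.0252 to 0.253 ± 0.0586. CD33 (91.7 ± 2.12 and 95.6 ± 3.55) and FUT4 (30.8 ± 0.336 and 30.5 ± 0.412) were not called. Of the monocyte markers 2 of 2 tested were higher, and the sum of all 6 went from 26.1 to 27.9 in controls to 41.4 to 43.2, with CD14, CD163 and VCAN under 1 throughout. The mature neutrophil markers summed to 78.8 to 79.6 in controls and 63.0 to 64.5 after amiodarone, mostly from CSF3R (74.4 ± 0.616 to 57.6 ± 0.874). Of 3 tested, 2 were lower and 1, CEACAM8, was higher, from 0.5 ± 0.0985 to 2.83 ± 0.566. CEACAM8 passed the filter only through the treated libraries. Basophil and mast cell markers rose in 3 of 4 tested, with a sum of 172 to 186 in controls and 315 to 341 after amiodarone, mostly from the near-identical tryptase genes TPSB2 and TPSAB1, while CPA3 was under 1. Eosinophil markers, which bear on PRG2, RNASE2 and EPX, summed to 32.5 to 33.2 and then 38.01 to 39.04. Most of this sum was CLC (30.1 ± 0.2 to 34.5 ± 0.866). Of 3 tested, 2, CLC and CCR3, were called higher and none was called lower. The other markers had lower means after amiodarone. SIGLEC8, not called, went from 1.11 ± 0.0961 to 0.937 ± 0.0208. IL5RA, under 1 and not tested, went from 0.173 ± 0.0231 to 0.12 ± 0.0173. The part of these shifts in the fall of the granule genes was not tested.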

How the data were processed

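mRNA of 6 HL-60 libraries was sequenced after a strand-preserving preparation, per the labels' protocols. Tools listed by the submitters' processing notes are fastp (0.23.4), STAR (2.5.3a) and featureCounts, with genome build GRCh38.p12. Which strand setting and annotation were used, and what was done with reads matching more than 1 gene, is not given in the sources used here. The deposited values carry no stated unit and look like RPKM: they are not whole and sum to 534486 to 574483 per library. Between 45.6% and 57.3% of low values of short genes fell within 0.15 of a whole multiple of 1 read (30% by chance), at a step chosen to raise this share, so whole reads were not recovered and read numbers are estimates from GENCODE 29 exon lengths.

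Values were used as deposited. Log2(value + 1) of the 11445 genes that reached 1 in 3 or more libraries was fitted with limma 3.58.1 in R 4.3.3 (group as the single term, eBayes with trend), and the fit was tested on simulated data. Sums and ratios used exact permutation tests (SciPy 1.17.1). 26 symbols turned into dates were restored by Entrez ID. At most 0.751% of tested genes had identical values in any pair of libraries. The members and lists were chosen with earlier results of these data known. Named genes are the 10 members, up to 4 called genes with the smallest adjusted p of each of 7 related lists, up to 3 table rows on either side of clusters of members at most 200 kb apart, and the 3 genes nearest to MPO. Genes between members of a cluster, cell type markers and others named beyond these fall outside this rule. A few genes are not reported here. Alternatives were 2 other pseudocounts, 2 filters, 2 scalings, a replicate block, no trend and leaving out each library.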

Additional observations from a re-analysis of the deposited data

How the results depend on the processing

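Under 14 alternatives the 10 granule genes gave 135 values, all lower after amiodarone with limma adjusted p of 0.00323 or less. In the remaining cases EPX was under the filter without any 1 control library, and EPX and PRSS57 were under a minimum value of 5. The log2 fold change of EPX ranged from -0.75 (pseudocount of 0.1) to -0.13 (pseudocount of 5), that of PRSS57 from -1.19 to -0.47 and that of LPO from -2.44 to -1.10. With scaling to equal sums 8 granule genes were lower by at least 2-fold. Over all genes this count was 527 at a pseudocount of 0.1 and 101 at a pseudocount of 5, against 297. The difference in the summed value of the 10 genes, -4522, was -4876 with scaling to equal sums, -4356 by the median of ratios and -1173 without MPO, and from -4560 to -4495 with 1 library left out, where the smallest exact permutation p is 0.2. Of 45 other named genes, 43 kept direction and call. MKS1 lost its call without a filter (log2 fold change -0.18, adjusted p = 0.0841) and by the median of ratios (-0.14, 0.0858), and ranged from -0.17 to -0.10 in the 3 leave-one-out fits that ended it. VEZF1, never called, turned to -0.064 with scaling to equal sums, and with 1 library left out it ranged from -0.0166 (without amiodarone replicate 3) to 0.0552. The cause was not tested. Replicate numbers share only a number: deviations of same-numbered libraries correlated at -0.15, -0.02 and -0.02, and no library correlated best with its own number. With the number as a replicate block 8770 genes were called instead of 8959, and 10 granule genes were lower. EPX and PRSS57 rest on the fewest estimated reads. At that depth counting alone would give a coefficient of variation of 13.3% for EPX and 10.4% for PRSS57 in controls, and the observed ones were lower, at 6.73% and 5.91%. That of LPO was 0.602%, against 3.09% from counting.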
